A study of Nicotiana benthamiana with 9 samples.

Results

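The comparison described here is that of wounded with unwounded leaves of Nicotiana benthamiana, a plant of the tobacco genus used widely in the laboratory. It takes in 6 of the 9 libraries of the series, chosen by their labels: 3 from plants whose leaves were cut with scissors and which then stood at 23 °C for 1 h, and 3 from mock plants that stood at 23 °C for 1 h without a cut. Plants of every group were soil-grown and 5 weeks old, and RNA came from leaves. The other 3 libraries, from plants held at 37 °C for 1 h, entered the filter, the scaling and the shared model fit. They also entered the mean level by which sequences were put into classes, and the side-by-side values. The series calls the libraries of a group biological replicates. No line, genotype or pooling of plants is named in the labels, and the sources used here do not give the distance between the cut and the sampled tissue.

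A cut breaks cells and sets off a signal that spreads through the leaf within minutes to hours. In plants of the tobacco family this is known to run through calcium, mitogen-activated protein kinases and the hormones jasmonate and ethylene, and to end in the transcription of defence genes such as those for protease inhibitors. A sample taken early after a cut is known to hold mostly the fast transcriptional part of that response. The deposited table cannot show these genes by name. Each of its 56094 rows is a whole scaffold or contig of a genome assembly, taken from position 1 to its end, with no gene identifier, so neither wound-response genes nor markers of leaf cell types could be looked up. A value is the number of counts anywhere on that sequence, and a long scaffold can hold many genes that moved differently. Fewer cells of a type and less RNA per cell cannot be told apart in such bulk samples.

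The 6 libraries held between 14517149 and 16326700 counts, and 14938 sequences had a count in at least 1 of them. After the removal of sequences with low counts, 9645 were tested. Levels are given in CPM, counts per 1000000 of the library size after scaling by the trimmed mean of M values (TMM), as the mean ± SD of 3 libraries. A sequence was called higher or lower after wounding at an adjusted p under 0.05 in the quasi-likelihood test of edgeR, with p-values adjusted by Benjamini-Hochberg over all 9645.

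More sequences rose than fell after wounding. Of the tested sequences, 14.9% were called: 951 were higher (9.86% of all tested) and 484 were lower (5.02%). Under TMM the called rises were also larger. The median fitted change of the raised sequences was 1.69-fold and that of the lowered ones 1.505-fold. Rises of at least 2-fold numbered 348 (3.61% of all tested) and falls of at least 2-fold numbered 92 (0.954%), together 4.56%. The excess of rises depended in part on scaling: of all calls 66.3% were rises under TMM and 51.3% under upper-quartile factors. Upper-quartile factors gave 304 rises and 120 falls of at least 2-fold. They moved the median log2 fold change of all tested sequences to -0.067, and the median sizes of calls were not measured under them.

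Rises reached further than falls. Among raised sequences 305 rose by less than 1.5-fold, 298 by 1.5-fold to 2-fold, 235 by 2-fold to 4-fold and 58 by 4-fold to 8-fold. A further 25 lay between 8-fold and 16-fold, and 30 were at 16-fold or more. Among lowered sequences 239 fell by less than 1.5-fold, 153 by 1.5-fold to 2-fold and 82 by 2-fold to 4-fold. Another 10 fell by 4-fold to 8-fold and 0 fell by 8-fold or more. The largest fall called was 7.87-fold; at an unadjusted p under 0.05, 4 falls of 8-fold or more were fitted by edgeR, and DESeq2 called 2. Fitted folds of sequences with no mock count depend on the prior count of the model, and 9 sequences had no mock count with at least 10 counts in every wound library, against 0 in the reverse direction. Over all tested sequences, calls included, the median log2 fold change was -1.89e-04 with TMM, and the middle 50% lay between -0.23 and 0.24. The median was -0.067 with upper-quartile factors and -0.061 with library totals. Scaling sets this centre, so it does not show that the sequences not called stayed level.

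**Figure D1:**
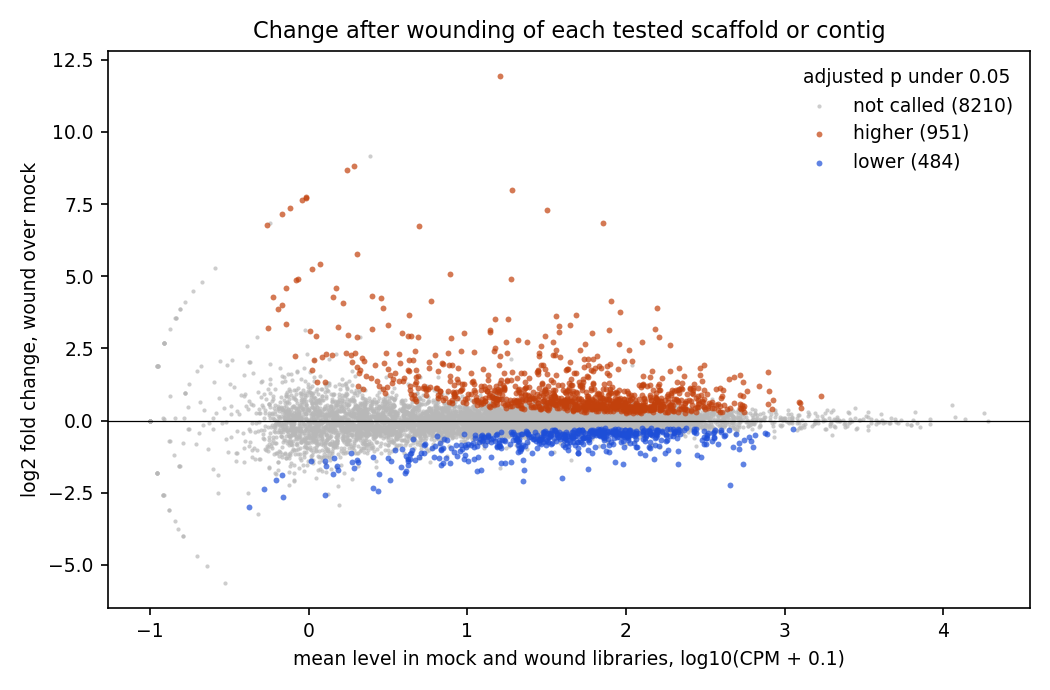
Log2 fold change of wound over mock (vertical axis) against the mean level in the 6 libraries as log10(CPM + 0.1) (horizontal axis); each point is a tested scaffold or contig, orange where called higher (951), blue where called lower (484) and grey where not called. Orange points reach a log2 fold change of 11.93 and blue points only -2.98, and few of the most abundant sequences on the right are coloured.

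The share of sequences called rose with level up to 1000 CPM and was low from there on. By mean CPM over all 9 libraries, 4.05% of the 740 sequences under 1 CPM were called (exact 95% interval 2.75% to 5.74%, for counting error only), 7.73% of the 2498 from 1 to under 10 CPM and 18% of the 4404 from 10 to under 100 CPM. The share was 22.2% of the 1872 from 100 to under 1000 CPM (20.3% to 24.1%). At 1000 CPM or more only 6 of 131 were called, 5 higher and 1 lower, or 4.58% (1.7% to 9.7%). The median standard error of the log2 fold change was 0.119 at 1000 CPM or more and 0.101 in the class below. The intervals treat sequences as independent, although all were measured in the same libraries. Why fewer were called in the highest class was not tested. The sizes of called changes were largest at low levels, in both directions. The median log2 fold change of called rises was 4.0 under 1 CPM, 1.39 from 1 to 10 CPM, 0.745 from 10 to 100 CPM, 0.548 from 100 to 1000 CPM and 0.646 for the 5 rises at 1000 CPM or more. For called falls it was, in the same order, -2.37, -1.25, -0.567, -0.489 and, for the 1 fall, -0.283. Under 1 CPM the median standard error was 0.61, so that only large changes could be called there.

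Concentration was measured as the change in mean CPM, summed over called sequences. It describes the calls and has no test, because the same contrast chose them. Called rises held 48.8% of the CPM gained by all tested sequences with a higher wound mean. Called falls held 31.3% of the CPM lost by those with a lower one. The remainder, in sequences not called, is outside the sums given here. Raised sequences together held 67465 ± 1920 CPM in mock and 114750 ± 5690 CPM in wound libraries (SD, n = 3). The gain was 47290 CPM, or 4.73% of the scaled library size. Their sums were 69560, 67036 and 65800 CPM in mock and 115550, 120000 and 108710 CPM in wound libraries. Lowered sequences together went from 53365 ± 4220 to 35407 ± 900 CPM, a loss of 17960 CPM or 1.8% of the scaled library size. The mock sums were 50276, 58167 and 51653 CPM, with replicate 2 highest. With library totals in place of TMM the gain was 40480 CPM and the loss 25040 CPM. The called gain exceeded the called loss under both, but scaling set part of the margin. TMM factors were 0.9954, 1.092 and 1.05 in mock and 0.9971, 1.018 and 0.9936 in wound libraries. Scaled libraries therefore did not add up to equal CPM. Under TMM the rises of all tested sequences summed to 96880 CPM and their falls to 57440 CPM.

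The change in called sequences was spread over many of them. The first sequence held 2.07% of the gain, the first 10 held 12.3%, the first 50 held 33.2% and the first 100 held 48%. It took 109 of the 951 raised sequences, or 11.5% of them, to reach 50% of the gain. For the loss it took 52 of 484, or 10.7%. The first lowered sequence held 3.27% of the loss, and the first 10 held 19.1%. Sequences with the largest folds contributed little to the reads that moved: the 55 that rose at least 8-fold held 4.04% of the gain, while all rises of at least 2-fold held 43%. Falls of at least 2-fold held 21.5% of the loss. By level, sequences from 100 to under 1000 CPM carried 62.9% of the gain and 69.9% of the loss, and those from 1 to under 10 CPM carried 1.35% of the gain. By length, scaffolds of 200000 nt or more carried 73.5% of the gain and 77.6% of the loss, and they were also 4724 of the 9645 tested. The share of all counts in each class of level or length was not measured, so no excess over it can be read from these values.

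**Figure D2:**
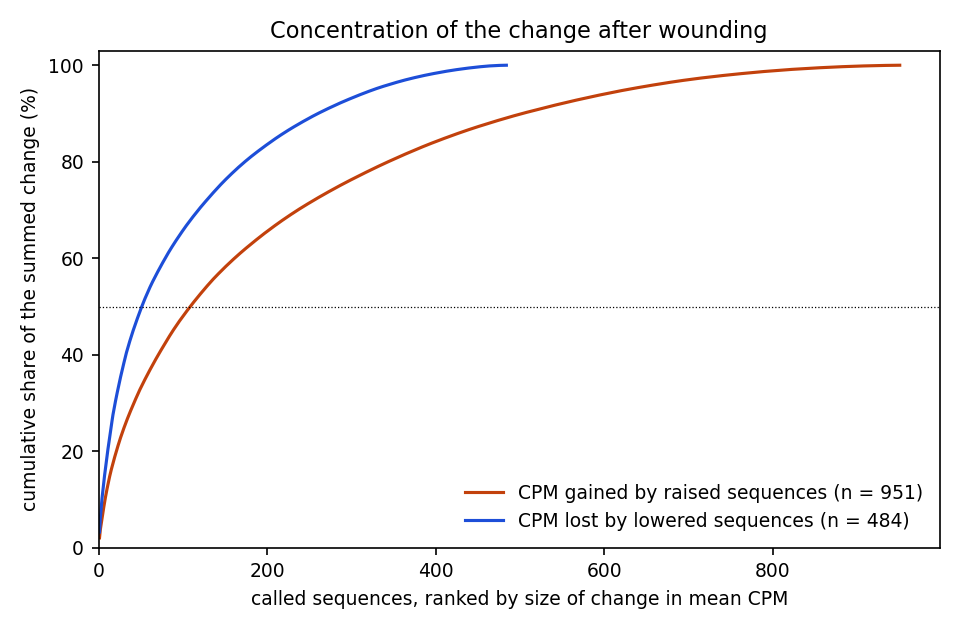
Cumulative share of the summed change in mean CPM (vertical axis, percent) over called sequences ranked from the largest change (horizontal axis), in orange for the 951 raised and in blue for the 484 lowered; the dotted line marks 50%. The orange curve crosses it at 109 sequences and the blue curve at 52, and neither starts with a jump from a single sequence.

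The share of the count on the most abundant sequences varied more among mock than among wound libraries. The 100 most abundant sequences held 39.27%, 33.66% and 37.14% of the count in mock and 35.99%, 35.07% and 37.1% in wound libraries. The sequences that held 50% of a library's count numbered 238, 359 and 280 in mock and 300, 325 and 283 in wound libraries. Every wound library lay inside the mock range, but mock replicate 2 alone set one end of that range: all 3 wound libraries lay below mock replicates 1 and 3 in the first measure and above them in the second. Without mock replicate 2 the wound-minus-mock difference was -2.151 percentage points and 43.67 sequences, against -0.637 and 10.3 with it. By TPM, wound replicate 3 exceeded every mock library, with 80.62% on the 100 most abundant sequences against 80.34%, 75.29% and 78.59%. Exact permutation of 3 libraries against 3 cannot give a p below 0.1, so no change and no stability of this structure could be shown.

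Replicates of a group were closer to each other than to the other group in most pairs. The share of the count that lay on different sequences in a pair of libraries was 4.24%, 4.68% and 5.45% for the 3 wound pairs and 4.44%, 7.23% and 8.98% for the 3 mock pairs. The 9 pairs of a mock with a wound library ran from 7.71% to 11.2%, with a median of 8.9%. The mock and mixed pairs overlapped, because mock replicate 2 stood 8.98% from mock replicate 1 while mock replicate 1 stood 7.71% from wound replicate 3. On the log2 scale, where abundant sequences weigh less, the correlations did not overlap: 0.988 to 0.993 within mock, 0.992 to 0.993 within wound and 0.974 to 0.982 between them across the tested sequences.

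**Figure D3:**
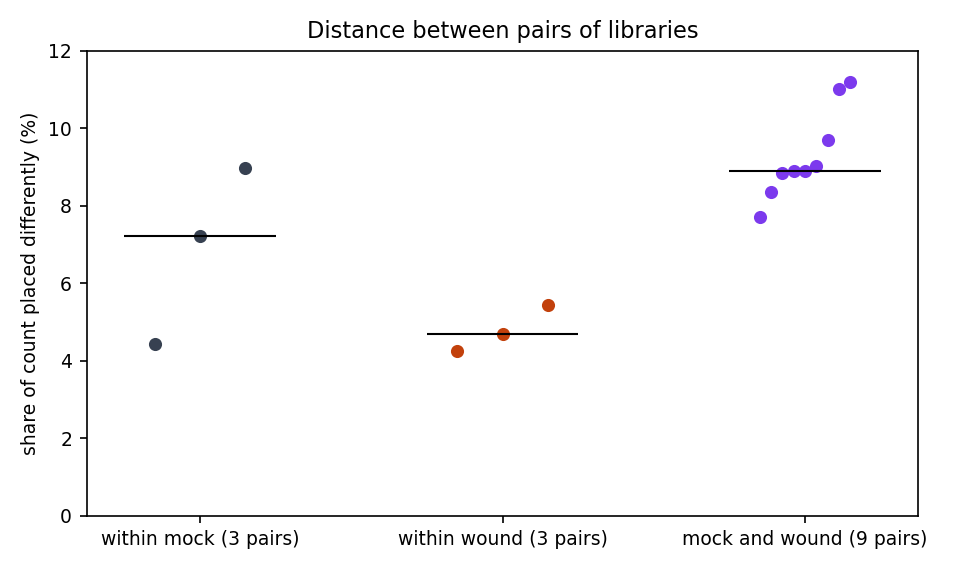
Share of the count placed on different sequences (vertical axis, percent) for each pair of libraries, grouped as within mock, within wound and mock with wound; points are pairs and lines are medians. The 3 wound pairs sit between 4.24% and 5.45% and the 9 mixed pairs between 7.71% and 11.2%, while the mock pairs reach up to 8.98%.

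The called sequences moved in all 3 wound libraries. All 3 wound libraries lay above all 3 mock libraries for 944 of the 951 raised sequences, against 18.9% of all tested sequences, and below them for 480 of the 484 lowered ones, against 16.6%. The test itself favours such sequences, so these shares describe the calls. Over all tested sequences the order of the 2 backgrounds turned with scaling, from 1825 above and 1605 below with TMM to 1685 and 1803 with RLE factors, 1466 and 1929 with library totals and 1445 and 2166 with upper-quartile factors. Over all calls the wound libraries were of like strength. Over the raised sequences the median difference from the mock mean in log2(CPM + 1) was 0.729 in wound replicate 1, 0.786 in replicate 2 and 0.667 in replicate 3. Over the lowered ones it was -0.617, -0.555 and -0.557. Larger rises were less even. Over those of at least 2-fold the medians were 1.27, 1.47 and 1.18 in wound replicates 1, 2 and 3. Wound replicate 2 was the highest wound library for 215 of these 348, or 61.8%, against 34% of all tested sequences. Over falls of at least 2-fold the medians were -1.14, -1.14 and -1.08.

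Lowered sequences were most often highest in mock replicate 2, and their number changed with several libraries. That library was the highest mock library for 309 of the 484 lowered sequences (63.8%) and for 40.9% of all tested sequences. Its median log2(CPM + 1) over falls of at least 2-fold was 0.333 above the mean of the other mock libraries, while for mock replicate 1 the same difference was -0.367. Without mock replicate 2, 349 sequences were lower and 66 of them at least 2-fold. Counts of falls moved further when other libraries were left out: 258 without mock replicate 3, 194 without wound replicate 1, 297 without wound replicate 2 and 261 without wound replicate 3. Falls of at least 2-fold numbered 54 without wound replicate 1. Rises numbered 616 without mock replicate 3 and 627 without wound replicate 1. The part of single plants in these shifts was not tested.

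Large rises held best across the settings tried. A set of 526 of the 951 rises (55.3%) and 148 of the 484 falls (30.6%) were called in every setting in which they were tested. Of the 113 rises of at least 4-fold, 94 (83.2%) were called throughout, against 248 of 603 (41.1%) below 2-fold. Of the 10 falls of at least 4-fold, 3 were.

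A longer ranked list was then drawn up. To enter it a sequence had to be called, to have its 3 wound libraries beyond its 3 mock libraries, and to average at least 10 CPM in the higher group, which 827 rises and 425 falls did. The 16 largest rises and 8 largest falls by fitted log2 fold change are given first, then the 6 largest gains and 4 largest losses in CPM. No gene name or role is attached to any of them, since the files do not pair these sequences with genes.

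The first 4 rises had at most 29 counts in any mock library. The contig Niben101Ctg12548, which is 1574 nt long, had 0 counts in each mock library and 390, 614 and 439 counts in the wound libraries. Measured against a floor of 3 counts per mock library, it was at least 173-fold higher (adjusted p = 4.53e-05, edgeR). The scaffold Niben101Scf28036 (positions 1 to 26261) had 4, 1 and 2 mock counts and 449, 762 and 508 wound counts. The scaffold of 217860 nt, Niben101Scf09822, had 2, 6 and 11 mock counts and 483, 860 and 1497 wound counts. Its wound libraries were far apart, yet the lowest of them stood well above the highest mock library. Its counts in the wound group were 160.8 times those of the mock group after scaling, with a 95% counting interval of 102.7 to 267.4 (log2 fold change 7.31 ± 0.545 SE, adjusted p = 8.81e-06, edgeR). The scaffold Niben101Scf10847 (positions 1 to 89863) had 29, 4 and 26 mock counts and 1386, 2187 and 2825 wound counts, a log2 fold change of 6.86 ± 0.427 (SE, adjusted p = 2.88e-06, edgeR).

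In heat-treated plants, whose comparison would share the mock controls, these 4 had few counts. Heat libraries held 0, 8 and 18 counts of Niben101Ctg12548 and 2, 0 and 14 of Niben101Scf28036. They held 5, 10 and 3 counts of Niben101Scf09822 and 0, 2 and 2 of Niben101Scf10847.

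The next sequences by fold were also low in mock libraries. Niben101Scf09741, a scaffold of 158883 nt, went from 14, 6 and 1 counts in mock to 158, 241 and 270 in wound libraries (0.444 ± 0.427 to 14.8 ± 3.99 CPM). The mock libraries disagreed among themselves, and with single libraries left out its log2 fold change of 5.06 ran from 4.53 to 6.08. Niben101Scf04930 (137936 nt) was more even, with 23, 18 and 17 mock counts and 488, 558 and 597 wound counts, a log2 fold change of 4.92 ± 0.301 (SE, adjusted p = 2.88e-06, edgeR). The contig Niben101Ctg11091, only 1202 nt long, had 18, 6 and 6 mock counts and 224, 149 and 129 wound counts. It was also above mock after heat, at 3.59 ± 1.04 CPM against 0.627 ± 0.462 CPM.

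Another group was expressed in mock leaves and rose more than 12-fold. Niben101Scf14121 (65615 nt) had 8.9, 8.6 and 8.76 CPM in mock and 140, 182 and 136 CPM in wound libraries. Its mock libraries nearly coincided, and the log2 fold change was 4.13 ± 0.204 (SE, adjusted p = 8.41e-07, edgeR). Niben101Scf10535 (244799 nt) drew the most reads of the 16, with 25.5, 17.6 and 15.5 CPM in mock and 256, 340 and 284 CPM after wounding. The fitted log2 fold change was 3.91 ± 0.181 (SE, adjusted p = 7.98e-07, edgeR), and heat libraries held 63.4 ± 4.73 CPM.

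Per length the contig Niben101Ctg15550 (4392 nt) stood highest among the 16. The authors' TPM of it averaged 87.8 in mock and 1080 in wound libraries, against 2.42 and 33.2 for the far longer Niben101Scf10535. Its counts were 222, 218 and 168 in mock and 1978, 3346 and 2381 in wound libraries, while heat libraries held only 14, 21 and 14. Niben101Scf12039 (10611 nt) was uneven in mock. It had 75, 245 and 28 mock counts and 1178, 1634 and 1264 wound counts, and its log2 fold change of 3.65 ± 0.562 (SE, adjusted p = 0.00135, edgeR) lay between 3.17 and 4.8 when single libraries were left out.

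The remaining 5 rose between 9.79-fold and 12.4-fold by the fit. Niben101Scf04817 (134187 nt) went from 5.36 ± 0.554 to 66.7 ± 11.5 CPM. Niben101Scf14741 (123854 nt) went from 2.36 ± 0.0718 to 27.2 ± 6.61 CPM, and Niben101Scf14679 (67219 nt) from 2.91 ± 0.726 to 32.9 ± 6.17 CPM. The mock libraries of each lay close together and far below every wound library. Niben101Scf20283 (233592 nt) went from 8.2 ± 1.24 to 80.9 ± 21.5 CPM, and Niben101Scf01857 (348654 nt) from 6.99 ± 0.591 to 68.5 ± 20.9 CPM. All 16 rises were called in every setting in which they were tested, with adjusted p at most 0.00745 (edgeR or DESeq2). The rule of the list chose large rises without overlap, which favours this, so it describes the list.

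The order within the list was mostly not resolved. Of the 15 neighbouring pairs among the 16 rises, 2 were separated by more than 2 combined standard errors of the log2 fold change. One is the first pair, whose gap rests on a sequence with no mock count, and the other lies between Niben101Scf10847 and Niben101Scf09741. Of the 7 neighbouring pairs among the 8 falls, 0 were separated in this way.

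The ranked falls were shallower, from 2.86-fold to 4.68-fold, and none was silenced. Niben101Scf08422 (220293 nt) led both the list by fold and the list by CPM. It had 523, 1060 and 653 CPM in mock and 147, 190 and 141 CPM in wound libraries, so that the groups lay far apart, with mock replicate 2 the highest. Without single libraries its log2 fold change of -2.23 ran from -2.43 to -1.9. The contig Niben101Ctg15836 (5349 nt) had 226, 1135 and 409 mock counts and 112, 133 and 139 wound counts. Its fall (log2 fold change -2.1 ± 0.606 SE, adjusted p = 0.0385, edgeR) was lost in 7 of 18 settings. Leaving out mock replicate 2 brought it to -1.2.

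Niben101Scf01041 (605562 nt) had the smallest standard error of the 8 falls. It had 70.3, 102 and 90.5 CPM in mock and 25.4, 28.2 and 28.2 CPM in wound libraries, with a log2 fold change of -1.69 ± 0.143 (SE, adjusted p = 2.24e-05, edgeR). Niben101Scf10707 (233061 nt) fell from 34.7 ± 8.9 to 10.7 ± 1.48 CPM (log2 fold change -1.7 ± 0.197 SE, adjusted p = 2.1e-04, edgeR). After heat the level was 364, 262 and 278 CPM, far above both. Niben101Scf16205 (74392 nt) showed the same order of groups, with 17.6 ± 6.01 CPM in mock, 5.2 ± 1.23 CPM after wounding and 125 ± 61.5 CPM after heat. Its fall was not called without wound replicate 1 (adjusted p = 0.0604, edgeR).

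The remaining 3 falls by fold follow. Niben101Scf00214 (839213 nt) had 40.2, 98.7 and 50.4 CPM in mock and 14.7, 14.6 and 18.8 CPM in wound libraries. The contig Niben101Ctg13329 (1902 nt) had 13.5, 19.7 and 22.6 CPM in mock and 5.97, 4.4 and 6.52 CPM in wound libraries. Niben101Scf27377 (88383 nt) was the exception in which mock replicate 2 was lowest, with 171, 77.5 and 177 CPM in mock against 31.3, 57.2 and 60.5 CPM. Mock replicate 2 was the highest mock library for 6 of the 8.

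**Figure D4:**
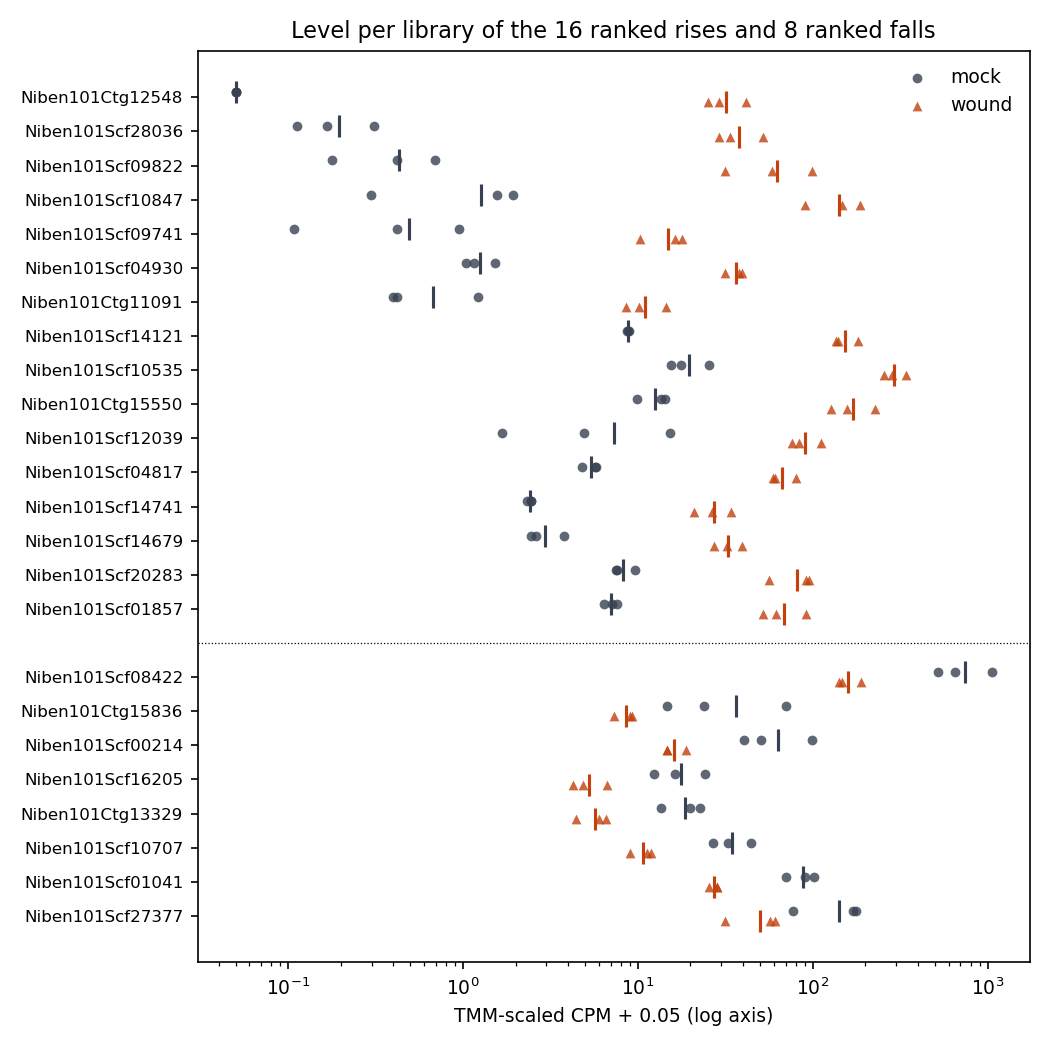
TMM-scaled CPM plus 0.05 on a log axis for the 16 ranked rises (above the dotted line) and the 8 ranked falls (below it); dark circles are the 3 mock libraries, orange triangles the 3 wound libraries and vertical ticks the group means. Circles and triangles never overlap within a sequence, as the list requires, and the gap is far wider for the rises. The 3 circles of Niben101Ctg12548 stand for 0 counts.

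The largest gains in reads came from scaffolds of 184965 nt or more that were abundant in mock leaves. None of the 6 is among the 16 largest folds. Niben101Scf01971 (340381 nt) had 469, 219 and 442 CPM in mock and 977, 1720 and 899 CPM in wound libraries. Its wound replicate 2 stood apart, and the log2 fold change was 1.67 ± 0.3 (SE, adjusted p = 0.00345, edgeR). Niben101Scf00493 (184965 nt) rose more evenly, from 223, 269 and 294 CPM to 963, 719 and 665 CPM (log2 fold change 1.58 ± 0.151 SE, adjusted p = 6.02e-05, edgeR). After heat it stood at 358 ± 32.4 CPM and Niben101Scf01971 at 125 ± 22.3 CPM.

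Niben101Scf00841 (351907 nt) gained 540.7 CPM on 422 ± 77.9 CPM in mock, and Niben101Scf02749 (687626 nt) gained 541.6 CPM on 532 ± 90.3 CPM. Both were called in every setting. Another pair of gains was less secure. Niben101Scf01653 (382800 nt) rose from 1200 ± 255 to 2180 ± 364 CPM, the first gain at 978.8 CPM, and Niben101Scf02583 (745205 nt) from 967 ± 163 to 1510 ± 180 CPM. Each of these calls was lost in 6 of 18 settings, among them upper-quartile factors and the fits without mock replicate 2 or 3. Their log2 fold changes were 0.86 ± 0.247 and 0.65 ± 0.176 (SE), and mock replicate 2 was the lowest mock library of both.

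Among losses in reads, Niben101Scf01084 (783151 nt) was the steadiest. It had 681, 739 and 652 CPM in mock and 306, 422 and 306 CPM in wound libraries, a log2 fold change of -1.0 ± 0.138 (SE, adjusted p = 6.7e-04, edgeR). Niben101Scf01008 (467562 nt) had 428, 1390 and 608 CPM in mock against 273, 352 and 236 CPM, and its log2 fold change of -1.49 shrank to -0.87 without mock replicate 2. Its call was lost without wound replicate 1 or 3. Niben101Scf04861 (228541 nt) had 561, 1200 and 725 CPM in mock against 396, 485 and 425 CPM. Its call was lost in 6 of 18 settings. In both, mock replicate 2 was the highest mock library by a wide margin.

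Below the level that the list asks for, 8 more sequences had no mock count and at least 10 counts in each wound library; they fell outside the rule and were singled out after their values were seen. The most abundant were the scaffold Niben101Scf24315 (34776 nt), with 44, 97 and 24 wound counts, and the contig Niben101Ctg09898 (1010 nt), with 34, 38 and 78. Neither had a count in any heat library. The 8 averaged between 0.886 and 3.67 CPM in wound libraries, and their adjusted p ran from 0.00154 to 0.0314 (edgeR). Choosing sequences with counts in wound libraries alone favours a low p, so these values describe the choice and add no support.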

How the data were processed

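RNA sequencing libraries of leaves were compared, 3 wounded against 3 mock. The authors deposited 1 table with 4 values per library and sequence, per the file headers: total counts, RPKM, TPM and a scaled signal headed CPM. The deposited counts are raw. The deposited RPKM are per kilobase of the whole sequence, and the deposited TPM sum to 1000000 per library. The deposited signal headed CPM is the count divided by 1 constant per library; it and RPKM were not used. The sources used here do not give the aligner, build, strand handling or treatment of reads with several matching places, so near-identical sequences are uncertain. Numbers of counts limit precision, and intervals cover counting error only.

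Counts were filtered with filterByExpr, scaled by TMM and fitted with edgeR 4.0.16 (R 4.3.3) over all 9 libraries. Standard errors were derived from the log2 fold change and the F statistic of its test. DESeq2 1.42.0 was an alternative. On 5 simulated tables of 9645 sequences, 200 changed in each, wound against mock, the test found 42.4% of differences of 1.5-fold, 74% of those of 2-fold and 89.1% of those of 4-fold, and 4.6% of its calls were of unchanged sequences. In the simulation, changes went up as often as down, heat libraries were like mock and no library stood apart. Counts were drawn independently with the fitted spread. In the data 14.9% of sequences were called, so these shares need not hold for them. Named sequences followed the rule stated with the ranked list. Sequences, lists and tests were chosen with earlier results of these data known. The filtered table held between 99.942% and 99.953% of the counts of the 6 libraries.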

Additional observations from a re-analysis of the deposited data

How the results depend on the processing

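No call turned to the opposite direction under the 18 alternatives. Of 591 values of the 33 named sequences, 563 kept their call and 28, from 6 sequences, lost it. Upper-quartile factors gave 761 lowered sequences, of which 87 held 50% of the loss, and DESeq2 gave 756 lowered. The summed gain was 39490 CPM with upper-quartile factors, 40480 with library totals, 61840 without a filter and 40230 with the replicate block. The summed loss was 20890 CPM with RLE factors, 26700 with upper-quartile factors, 25040 with library totals, 23180 without a filter, 20520 with the 6 libraries alone, 24620 with DESeq2, 13960 with the replicate block and 20780 for sequences of at least 2000 nt. By TPM in place of counts, the wound-minus-mock difference in the share of the most abundant sequences turned to 1.613 percentage points for the first 100 and 0.763 for the first 1000, and that in the number holding 50% to -0.3333. For none of these shifts was a cause tested.

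With each of the 9 libraries left out in turn there were 616 to 1118 rises, 194 to 606 falls, 272 to 374 rises and 54 to 114 falls of at least 2-fold, 74 to 126 and 24 to 64 sequences holding 50% of gain and loss, a gain of 35360 to 51630 CPM and a loss of 9419 to 20210 CPM. The differences in structure then ran from -0.1279 to 0.9169, -2.151 to 0.654 and -1.06 to 0.7395 percentage points for the first 10, 100 and 1000 sequences, and from -16.83 to 43.67 sequences for the number holding 50%. The labels do not say whether a shared replicate number marks a shared plant, day or batch. Deviations of same-numbered mock and wound libraries correlated at -0.0932, 0.192 and 0.0899. Those of other-numbered libraries correlated at -0.216 to 0.171. The ranges overlap, so a pairing by number could not be decided. With the replicate block, 765 were higher and 332 lower, and 4 named sequences lost their call: Niben101Ctg15836, Niben101Scf01653, Niben101Scf02583 and Niben101Scf04861 (adjusted p from 0.0729 to 0.0908, edgeR). Depth limits the sequences under 1 CPM, with a median standard error of 0.61 on the log2 scale.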
